A study of Mus musculus with 12 samples.

Results

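Cultured fibroblast-like synoviocytes, the mesenchymal cells that line and support the joint, were compared between an inflammation group and a homeostasis group. All 4 inflammation and all 4 homeostasis libraries were taken, 8 of the 12 libraries in the series, and the comparison covers genes on the autosomes across the whole transcriptome. Of 15049 genes tested, 13902 lay on an autosome and are described here. The homeostasis group is labelled with 5% sucrose in the water for 3 weeks and is called WT in the sample descriptions. The inflammation group is labelled with 1 mg/ml Doxycycline plus 5% sucrose water for 3 weeks and is called DOX ON, and the remaining 4 libraries (resolution) come from the same course followed by its stop. The protocol shared by all groups says that the cells came from mice with inflammatory arthritis induced by TNF and were grown before RNA was taken. No genotype, promoter, transgene, age or sex is given in the labels, and of these 2 groups only inflammation received doxycycline, so a response to the drug, to TNF or to a difference of genotype cannot be told apart. The labels do not tell whether each library stands for its own animal or culture. All p-values therefore rest on the spread among these samples, and that spread may be technical.

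Synovial fibroblasts make the collagens, proteoglycans and hyaluronan of the joint lining and the lubricant of its fluid. They also keep a memory of the joint they came from through the Hox genes and other positional factors. TNF signals through NF-kappa B and, in part, through interferon made in response, and it changes matrix turnover, growth and lipid mediators in these cells.

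The label was checked against markers. The 4 values of a group follow the order of libraries 1 to 4 throughout, and log2 fold changes are inflammation minus homeostasis, with a standard error (SE) where one is printed. All 18 fibroblast markers on the list were tested. Their summed level in CPM (counts per 1000000 of the library total, scaled by the trimmed mean of M-values, TMM) was 41606 to 49976 CPM in homeostasis and 37295 to 47718 CPM in inflammation. Of these 18, 2 rose and 7 fell, among them Thy1, a surface protein of sublining fibroblasts (-2.03 log2), and Vim, an intermediate filament protein (-0.82 log2). Of 13 markers of the sublining, Thy1 included, 5 rose and 4 fell, with a median log2 fold change of 0.31 and a sum of 477 to 571 CPM in homeostasis and 541 to 611 CPM in inflammation. Of 8 markers of the lining 2 rose and 3 fell, with a sum of 2548 to 5198 CPM in homeostasis and 1034 to 1213 CPM in inflammation. Prg4, lubricin, whose values are given below, made most of the lining sum in every library. That sum therefore follows this 1 gene and does not describe the lining markers as a set. The fibroblast count of 7 became 4 without homeostasis library 1, without inflammation library 1 or without inflammation library 2. In the whole comparison 18.5% of autosomal genes tested were called higher and 18.9% lower, at an adjusted p below 0.05 by edgeR's quasi-likelihood test with Benjamini-Hochberg adjustment. Markers of other cells moved too. Of 19 macrophage markers tested, 19 rose, with a median log2 fold change of 1.88, and their sum was 136 to 181 CPM in homeostasis and 737 to 825 CPM in inflammation. Emr1, which encodes the macrophage protein F4/80, read 22.4, 15, 12.3 and 10.7 CPM in homeostasis and 39.7, 38.4, 65 and 107 CPM in inflammation. Ptprc, the pan-leukocyte protein CD45, read 0.761, 0.246, 0.854 and 0.272 CPM in homeostasis and 3.65, 3.48, 4.31 and 2.52 CPM in inflammation. Every inflammation library lay above every homeostasis library for both, and Fcgr1, Aif1 and Cx3cr1 did not pass the filter on low counts. That filter kept genes with enough counts in any 1 group. A marker near absent in homeostasis was therefore tested only where another group expressed it, which favours rises in the count of 19. The same limit holds for other lists with members left out by the filter. Of 7 osteoclast markers 5 rose and 1 fell, the risen led by Dcstamp, a fusion protein (4.95 log2), and Mmp9, a gelatinase (3.38 log2). Of 10 neutrophil markers 2 were tested and both rose, Ly6g and S100a9 did not pass the filter, and no mast cell marker did. The 1 lymphocyte marker tested rose, keratinocyte markers gave 2 of 3 higher, osteoblast markers 2 of 4 higher and mural cell markers 1 of 5 in each direction. Chondrocyte markers went the other way, with 8 of 12 lower and 0 higher. Schwann cell markers gave 6 of 7 lower, endothelial markers 4 of 9 lower and 1 higher, adipocyte markers 5 of 7 lower and 1 higher, and skeletal muscle markers 4 of 5 lower and 1 higher. The adipocyte count of 5 lower became 3 with homeostasis libraries 3 and 4 as the controls. For adipocyte and skeletal muscle markers the sums went against the counts, and 1 member that rose made most of the CPM of each sum in inflammation. Adipocyte markers summed to 122 to 213 CPM in homeostasis and 212 to 252 CPM in inflammation, with Lpl, lipoprotein lipase, up by 2.33 log2. Skeletal muscle markers summed to 36.9 to 47.4 CPM in homeostasis and 58.9 to 90 CPM in inflammation, with Acta1, skeletal alpha actin, up by 1.44 log2. Fewer cells of a type and less RNA per cell cannot be told apart in bulk RNA, and the part these cells had in any result below was not tested.

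**Figure D1:**
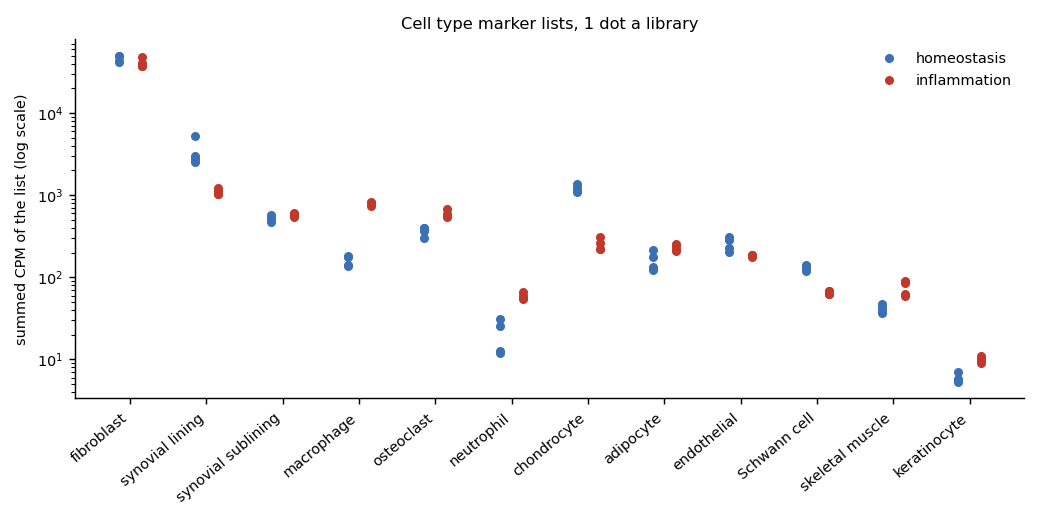
Summed level of each cell type marker list in CPM (log scale), 1 dot a library, 4 homeostasis libraries in blue and 4 inflammation libraries in red. Macrophage markers sum to 136 to 181 CPM in homeostasis and 737 to 825 CPM in inflammation, and chondrocyte markers to 1082 to 1387 CPM in homeostasis and 218 to 307 CPM in inflammation.

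Library totals ran from 18352027 to 34971537 counts in homeostasis and from 20563912 to 24145832 in inflammation. No 2 libraries of a group agreed within sampling noise, since the reduced chi-square of a pair over genes ran from 10 to 112. Homeostasis libraries 3 and 4 were the closest pair of their group at 14.2, and several genes below show libraries 1 and 2 on one side and 3 and 4 on the other. The summed level of 4 Y-linked genes was 61.1 to 72.9 CPM in homeostasis and 0 to 0.137 CPM in inflammation, so Y-linked transcripts separated the groups, and a difference of sex cannot be told apart from the treatment. Genes of X and Y were left out of every count by rule.

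Of the 13902 autosomal genes, 2565 were higher and 2625 lower in inflammation. Changes of at least 2-fold were more often increases, with 1160 genes (8.34%) higher and 700 (5.04%) lower, and for changes of at least 4-fold these numbers were 338 (2.43%) and 149 (1.07%). The median log2 fold change of all autosomal genes was -0.03. Libraries of the 2 groups did not overlap for 2456 genes with higher levels (17.7%) and 2477 with lower levels (17.8%). Programmes of genes with a known shared role were then counted against the called shares over all autosomal genes, 18.5% higher and 18.9% lower. Counts near these shares describe a list and are not a result about it.

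**Figure D2:**
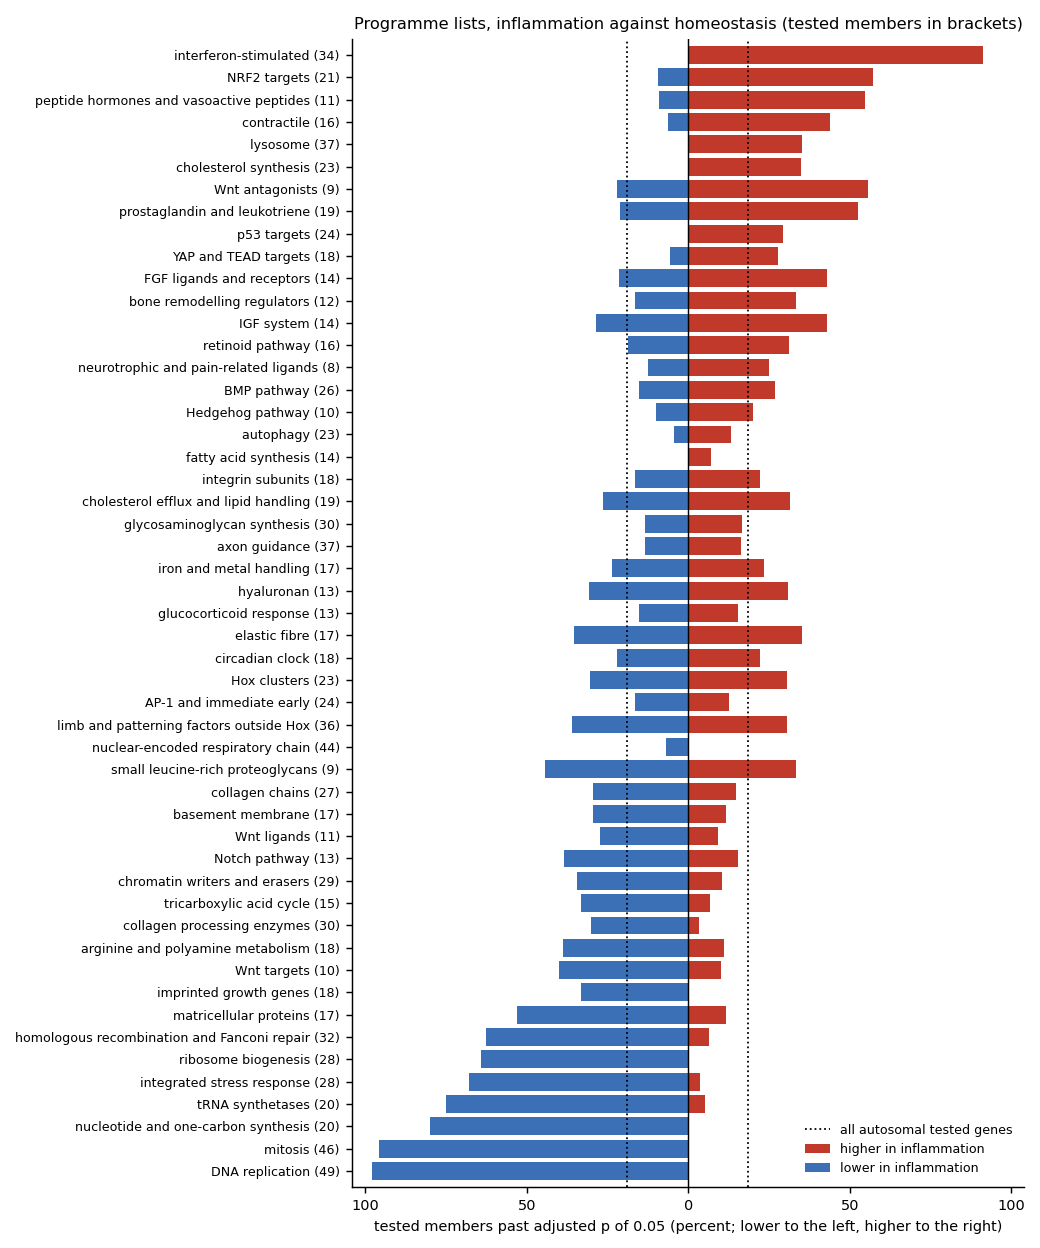
Share of each programme list's tested members that passed as higher (red, right) or lower (blue, left) in inflammation, with the number tested in brackets and dotted lines at 18.5% and 18.9%, the shares over all autosomal genes. DNA replication and mitosis stand at the bottom with 48 of 49 and 44 of 46 lower, and the interferon list at the top with 31 of 34 higher.

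Genes of cell division were lower almost throughout. Of 49 tested genes of DNA replication 48 fell and 0 rose, with a median log2 fold change of -1.30, and of 46 mitotic genes 44 fell and 0 rose, with a median of -1.68. Mcm3, a subunit of the replicative helicase, read 179.8, 183, 171 and 185 CPM in homeostasis and 44.7, 55.1, 49.4 and 42.7 CPM in inflammation. All 4 inflammation libraries lay below the 4 of homeostasis (log2 fold change -1.91 ± 0.14 SE, adjusted p = 4.12e-09). Kif2c, a kinesin that corrects attachments of chromosomes to the spindle, read 105, 111, 82.2 and 83.2 CPM in homeostasis and 18.3, 18, 16.8 and 20.1 CPM in inflammation, again with no overlap (log2 fold change -2.38 ± 0.15 SE, adjusted p = 6.77e-10). In repair by homologous recombination and the Fanconi pathway 20 of 32 genes fell, among them Rad54l (-1.85) and Fancd2 (-1.73). The 2 that rose were Atm (0.86) and Atr (0.93), the kinases that sense broken and unreplicated DNA. Of 24 p53 targets 7 rose and 0 fell, including Trp53inp1 (1.73), Polk, a translesion polymerase (0.95), Ccng1 (0.98) and Rrm2b (1.35). The other 17 did not pass, and the median over all 24 was 0.02 log2. Ccng1, cyclin G1, read 178, 132, 153 and 142 CPM in homeostasis and 316, 306, 323 and 253 CPM in inflammation. Ccng1 was higher in every inflammation library than in any of homeostasis. With an offset for transcript GC content and length the p53 count became 11 higher.

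Promoters of these genes were read from RefSeq, 250 bases before to 50 bases after the start, on build GRCm38.p6. A start is one that the RefSeq promoter table lists, which need not be the only or the outermost start of the gene: 20.1% of genes had more than 1 window, and a gene was counted where any of its windows matched. The letters TTTCNCGC or TTTGGCGC, a core of the E2F element that times S phase, were searched on both strands and matched 15 of 39 promoters of the replication list (38.5%) and 5.05% of 10973 tested genes with a promoter. The letters TTTGAA, the core of the CHR element of mitotic genes, matched 26 of 37 mitotic promoters (70.3%) and 14.7% of all. A match describes the letters and not a bound site. The promoters of Mcm3 and Kif2c are shown because they carry these letters and their genes fell, with matches in capitals and each sequence on the strand of its gene, the minus strand in both.
Mcm3 (chr1:20820263-20820562): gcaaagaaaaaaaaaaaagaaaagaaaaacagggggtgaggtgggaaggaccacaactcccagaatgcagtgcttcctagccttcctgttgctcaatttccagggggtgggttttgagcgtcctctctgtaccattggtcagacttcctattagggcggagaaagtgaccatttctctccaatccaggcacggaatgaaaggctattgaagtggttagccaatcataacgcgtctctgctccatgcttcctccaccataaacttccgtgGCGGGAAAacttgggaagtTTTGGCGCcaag
Kif2c (chr4:117178723-117179022): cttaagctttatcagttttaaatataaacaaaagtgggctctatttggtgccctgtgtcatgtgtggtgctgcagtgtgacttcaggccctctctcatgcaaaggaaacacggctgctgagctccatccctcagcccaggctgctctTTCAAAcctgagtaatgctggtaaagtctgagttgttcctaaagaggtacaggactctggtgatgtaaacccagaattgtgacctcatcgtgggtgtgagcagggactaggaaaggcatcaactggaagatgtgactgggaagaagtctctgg
The Mcm3 window holds 2 E2F matches, at 20 and 39 bases after the start, and the Kif2c window 1 CHR match that begins at position -103. The Mcm3 start is the 5′ end of the gene's RefSeq span, whereas the Kif2c start lies 3852 bases inside that span, where 3 of 8 GENCODE transcripts of the gene begin within 50 bases of it. Beyond the share of promoters with a match, no relation of the letters to the change was tested.

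Genes of ribosome production and of amino acid and nucleotide supply were lower in the same samples. In ribosome biogenesis 18 of 28 genes fell and 0 rose, with a median of -0.53 log2. Tcof1, treacle, needed for ribosomal RNA transcription, read 185, 199.6, 139.9 and 167 CPM in homeostasis and 67.1, 68.1, 67 and 64.9 CPM in inflammation. Its 2 groups did not overlap (log2 fold change -1.37 ± 0.14 SE, adjusted p = 2.88e-07). Of 20 nucleotide and one-carbon genes 16 fell and 0 rose, led by Shmt1 (-1.62) and Shmt2 (-1.36), the serine hydroxymethyltransferases. Of 20 tRNA synthetases 15 fell, led by Vars (-0.90) and Gars (-0.68), while Dars had a log2 fold change of 0.46 that did not pass once GC content and length were offset. In the integrated stress response, the programme by which ATF4 answers amino acid shortage and misfolded protein, 19 of 28 genes fell and 1 rose. Asns, asparagine synthetase, read 177, 229, 140.3 and 150.3 CPM in homeostasis and 91.1, 82.6, 73.7 and 95.1 CPM in inflammation and did not overlap between groups (log2 fold change -1.02 ± 0.15 SE, adjusted p = 2.08e-05). Slc7a5, an importer of leucine, read 61.3, 46.3, 42.2 and 46 CPM in homeostasis and 17.1, 16.7, 11 and 13.1 CPM in inflammation. For Slc7a5 no inflammation library reached up into the range of homeostasis. The single gene of the list to rise was Slc7a11, the cystine importer, with 4.72, 4.21, 7.63 and 5.3 CPM in homeostasis and 29.2, 30.8, 58.4 and 44.2 CPM in inflammation. Its lowest inflammation library was several times its highest homeostasis library (log2 fold change 2.91 ± 0.28 SE, adjusted p = 1.29e-07).

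The element read by ATF4 at such genes, searched as TGATGNAA on both strands, matched 9 of 24 promoters of the stress response list (37.5%), 5 of 13 promoters of tRNA synthetase genes (38.5%) and 2.95% of all tested genes with a promoter. The promoters of Asns and Slc7a11 both hold it although Asns fell and Slc7a11 rose, and they are printed side by side for that contrast, each on the minus strand of GRCm38.p6 with matches in capitals.
Asns (chr6:7693160-7693459): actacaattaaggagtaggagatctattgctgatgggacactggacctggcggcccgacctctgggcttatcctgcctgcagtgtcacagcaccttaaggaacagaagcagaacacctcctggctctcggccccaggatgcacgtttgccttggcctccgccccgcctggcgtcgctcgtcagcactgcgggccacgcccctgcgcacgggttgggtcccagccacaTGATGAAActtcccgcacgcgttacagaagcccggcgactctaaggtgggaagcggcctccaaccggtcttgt
Slc7a11 (chr3:50443564-50443863): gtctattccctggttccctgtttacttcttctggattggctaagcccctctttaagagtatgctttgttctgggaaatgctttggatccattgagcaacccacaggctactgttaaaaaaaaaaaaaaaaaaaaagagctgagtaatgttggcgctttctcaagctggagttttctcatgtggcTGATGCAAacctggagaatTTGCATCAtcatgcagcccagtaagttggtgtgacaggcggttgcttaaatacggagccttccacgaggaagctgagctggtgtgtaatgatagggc
Asns has 1 match, at position -23, and Slc7a11 has 2, at positions -66 and -47. The Asns start is the 5′ end of its RefSeq span, and the Slc7a11 start lies 55474 bases inside its span, with 4 of 5 GENCODE transcripts beginning within 50 bases of it. Slc7a11 is also on the list of NRF2 targets described below. Membership in these programmes was taken from general knowledge of the pathways and not from these libraries.

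Interferon-stimulated genes had the largest share of members higher among the 51 programme lists. Of 34 tested 31 rose and 0 fell, with a median log2 fold change of 2.39 against -0.03 for all autosomal genes. Isg15, a ubiquitin-like protein, read 5.02, 7.44, 29.6 and 40.7 CPM in homeostasis and 167, 154, 138 and 135 CPM in inflammation. Homeostasis libraries 3 and 4 lay above 1 and 2, and all 4 were below inflammation (log2 fold change 2.85 ± 0.57 SE, adjusted p = 0.00299). Oas1a, a sensor of double-stranded RNA whose reads may be shared with its close copies, read 0.609, 0.83, 3.07 and 5.48 CPM in homeostasis and 38.3, 39.5, 39.9 and 33 CPM in inflammation. The groups of Oas1a did not overlap, with inflammation above homeostasis. Usp18, which removes Isg15 and limits the receptor, rose by 3.83 log2, and Irf9, which carries the signal to the nucleus, rose by 1.01. Mx1 and Mx2 were not among the symbols used here. The letters GAAANNGAA, part of the element bound by the complex that holds Irf9, matched 16 of 26 promoters of this list (61.5%) and 8.65% of all. The Isg15 promoter, on the minus strand, is shown with its 3 overlapping matches in capitals, which begin at positions -78, -72 and -66.
Isg15 (chr4:156200769-156201068): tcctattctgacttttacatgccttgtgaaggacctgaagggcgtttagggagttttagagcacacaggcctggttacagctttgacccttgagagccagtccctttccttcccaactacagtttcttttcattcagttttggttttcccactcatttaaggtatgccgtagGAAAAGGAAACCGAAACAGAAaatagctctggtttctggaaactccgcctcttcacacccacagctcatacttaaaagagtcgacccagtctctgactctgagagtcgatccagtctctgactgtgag
Macrophage markers rose with these genes in the same libraries, at sums of 136 to 181 CPM in homeostasis and 737 to 825 CPM in inflammation, and their part in the increase was not tested.

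Positional genes changed by cluster. Hox genes encode transcription factors laid out in clusters in the order of the body and limb axis. Of 23 tested 7 rose and 7 fell. All 6 tested genes of the HoxC cluster rose, by 1.69 (Hoxc6), 2.20 (Hoxc9), 2.89 (Hoxc10), 3.09 (Hoxc11), 2.37 (Hoxc12) and 1.67 (Hoxc13) log2. Hoxc6 did not pass against homeostasis libraries 3 and 4 alone, at 1.01. Of 6 tested HoxD genes 5 fell, from -0.99 (Hoxd8) to -3.15 (Hoxd12). Of the 10 tested HoxA genes Hoxa4 (-1.20) and Hoxa7 (-0.49) fell, Hoxa11 rose by 0.37 and 7 did not pass. Without homeostasis library 2 none of these 3 passed, at -0.95 for Hoxa4, -0.42 for Hoxa7 and 0.35 for Hoxa11, nor did Hoxd8, at -0.70. Hoxc10 (GRCm38, chr15:102966796-102971898) read 2.99, 2.58, 2.05 and 3.49 CPM in homeostasis and 20.8, 20.1, 21.3 and 20.7 CPM in inflammation. The inflammation libraries were within a narrow band far above homeostasis (log2 fold change 2.89 ± 0.23 SE, adjusted p = 1.6e-08). Hoxc11 (chr15:102954526-102956701) read 1.57, 1.63, 1.48 and 0.996 CPM in homeostasis and 12.8, 13.1, 12.8 and 10.1 CPM in inflammation (log2 fold change 3.09 ± 0.23 SE, adjusted p = 6.81e-09). Hoxc11 was higher in every inflammation library than in any of homeostasis. The non-coding RNA Hotair, which is transcribed inside this cluster on the opposite strand, had a log2 fold change of 3.71, but no source used here states how strand was treated in counting, so its reads and those of genes it may overlap cannot be told apart. Hoxd13 (chr2:74668225-74671603), which acts in the hand and foot, read 29.4, 33.7, 25.1 and 27.9 CPM in homeostasis and 4.25, 5.28, 4.89 and 5.52 CPM in inflammation. Its levels were lower in inflammation without overlap (log2 fold change -2.54 ± 0.15 SE, adjusted p = 2.87e-10). Hoxd11 (chr2:74679558-74687016), which patterns the forearm and lower leg, read 20.6, 25.8, 29.9 and 23 CPM in homeostasis and 5.89, 4.38, 4.89 and 5.25 CPM in inflammation (log2 fold change -2.28 ± 0.16 SE, adjusted p = 2.77e-09). For Hoxd11 no inflammation library reached up into the range of homeostasis. The 7 lower calls became 4 without homeostasis library 2 and with homeostasis libraries 3 and 4 as the controls.

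**Figure D3:**
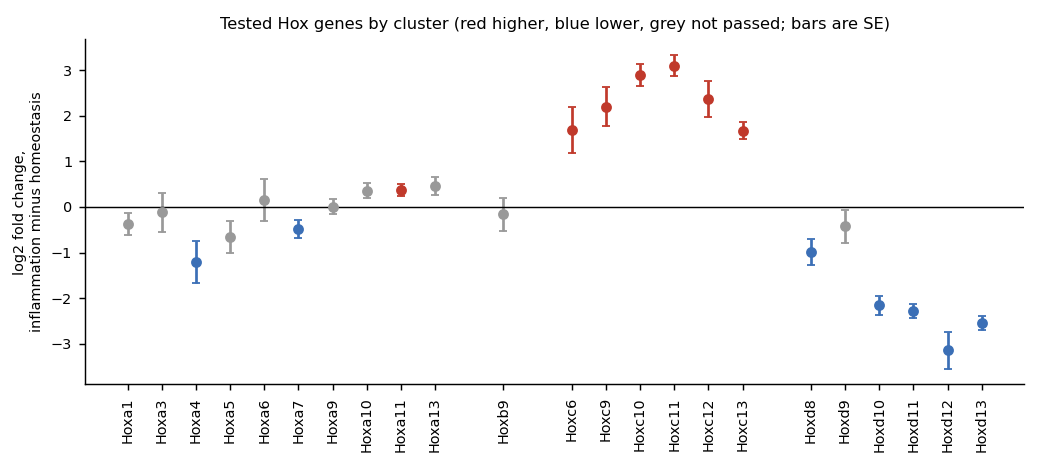
Log2 fold change (inflammation minus homeostasis) of each tested Hox gene with its standard error, by cluster. All 6 HoxC genes lie above 0 and all 6 HoxD genes below it, and the 10 HoxA genes run from -1.20 (Hoxa4) to 0.46 (Hoxa13).

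Other factors that separate limb regions moved as well, 11 of 36 up and 13 down. Tbx5, a factor of the forelimb, read 1.57, 3.66, 2.22 and 2.54 CPM in homeostasis and 0.0913, 0.205, 0.636 and 0.353 CPM in inflammation (log2 fold change -2.98 ± 0.38 SE, adjusted p = 5.07e-06). Barx1, a factor of joint and tooth mesenchyme, read 3.25, 4.68, 2.05 and 2.49 CPM in homeostasis and 0, 0.164, 0.44 and 0.0883 CPM in inflammation (log2 fold change -4.17 ± 0.59 SE, adjusted p = 1.9e-05). Both were low in the inflammation libraries and higher in each homeostasis library. Tbx4, a factor of the hindlimb, fell as well (-0.86), whereas Pitx1, which acts above it in the hindlimb, rose by 0.55. Pitx1 did not pass without homeostasis library 2 or 3 or without inflammation library 1 or 3, at 0.45 to 0.54. Six2 (1.30), Hand2 (0.81) and Foxf1 (1.03) rose, while Lhx2 (-2.23) and Dlx5 (-1.98) fell. The joints sampled are not given in the labels, and a difference of joint between the groups cannot be told apart from the treatment.

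Matrix genes changed in both directions within most families. Of 27 collagen chains 4 rose and 8 fell. The fibrillar chains Col1a1 (-0.23), Col1a2 (-0.33) and Col3a1 (-0.11) did not pass, and the 3 chains of beaded collagen VI, Col6a1 (-1.15), Col6a2 (-1.28) and Col6a3 (-1.75), fell. Col6a3 read 1189.5, 1171, 604 and 535 CPM in homeostasis and 213, 255, 255 and 317 CPM in inflammation. Homeostasis libraries 1 and 2 were about 2 times libraries 3 and 4, and all 4 exceeded inflammation (log2 fold change -1.75 ± 0.24 SE, adjusted p = 1.7e-05). Col15a1 (-1.61), Col14a1 (-1.52) and Col5a3 (-1.26) also fell, while Col8a1 (1.09), Col7a1 (1.57) and Col24a1 (1.76) rose. Enzymes that fold, modify and cross-link collagen gave 9 of 30 lower and 1 higher. Lox, lysyl oxidase, read 1379, 1218, 1344 and 1165 CPM in homeostasis and 2033, 2089.5, 2253 and 2367 CPM in inflammation (log2 fold change 0.78 ± 0.13 SE, adjusted p = 0.000101). Its relative Loxl4 read 143, 129.8, 98.5 and 99.4 CPM in homeostasis and 29.5, 33.3, 29.8 and 39.7 CPM in inflammation (log2 fold change -1.83 ± 0.15 SE, adjusted p = 1.75e-08). For both enzymes the libraries of the groups did not overlap, in opposite directions. The count of 9 became 5 without homeostasis library 4, 5 with homeostasis libraries 1 and 2 as controls, 14 with libraries 3 and 4, and 5 with upper-quartile scaling.

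Small proteoglycans, which sit on collagen fibrils, gave 3 of 9 higher and 4 lower. Dcn, decorin, a fibroblast marker that also binds TGF-beta, read 101, 106, 217 and 219 CPM in homeostasis and 907, 816, 1088 and 1074 CPM in inflammation. The homeostasis libraries again split into 1 and 2 against 3 and 4, and the lowest inflammation library was far above all of them (log2 fold change 2.60 ± 0.23 SE, adjusted p = 4.77e-08). Prelp (0.93) and Fmod, fibromodulin (0.85), rose, and Ogn, osteoglycin (-1.62), Aspn, asporin (-1.30), and Lum, lumican (-0.47), fell. Lum did not pass without homeostasis library 1, 3 or 4 or without inflammation library 1, 2 or 3, at -0.48 to -0.38. Elastic fibre genes gave 6 of 17 in each direction, with Eln, elastin itself, at -4.15 and Fbln5, which helps to build the fibre, at -0.73 against Fbln1 at 0.85. Without inflammation library 1 the elastic fibre genes lower were 3. Prg4, lubricin, the lubricant made by lining fibroblasts, read 2868, 5006, 2601 and 2362 CPM in homeostasis and 765, 763, 834 and 953 CPM in inflammation. Homeostasis library 2 was the highest and inflammation lay below all of homeostasis (log2 fold change -1.95 ± 0.27 SE, adjusted p = 1.9e-05). Among hyaluronan genes 4 of 13 rose and 4 fell. Cemip, which starts the breakdown of hyaluronan, read 411, 419, 619 and 501 CPM in homeostasis and 811, 1018, 1188 and 1430.3 CPM in inflammation (log2 fold change 1.19 ± 0.18 SE, adjusted p = 3.98e-05). The groups of Cemip did not overlap, with inflammation above homeostasis. Vcan, versican, which binds hyaluronan, rose by 1.16.

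In the basement membrane 5 of 17 genes fell and 2 rose. Lama5, laminin alpha 5, read 77.6, 64, 77.1 and 69 CPM in homeostasis and 10.3, 11.7, 13.9 and 13.8 CPM in inflammation and had no overlap (log2 fold change -2.53 ± 0.25 SE, adjusted p = 2.15e-07). Nid2 (-1.26) and Lama1 (-1.02) fell with it, and Agrn, agrin, rose by 0.85, a change that did not pass with homeostasis libraries 3 and 4 as the controls. Of 17 matricellular proteins, secreted signals of the matrix, 9 fell and 2 rose. Smoc1 (-2.40), Tnn (-1.84) and Nov (-1.66) fell. Spp1, osteopontin, read 1154, 1174, 1348 and 1336 CPM in homeostasis and 3038, 2667, 3462 and 3206 CPM in inflammation (log2 fold change 1.30 ± 0.14 SE, adjusted p = 4.47e-07). Spp1 was higher in every inflammation library than in any of homeostasis. Thbs1, thrombospondin 1, rose by 0.76. Its relative Thbs4 fell (-2.14). Genes of glycosaminoglycan synthesis gave 5 of 30 higher and 4 lower, close to the background. That count of 5 was 3, 3 and 2 without inflammation libraries 1, 2 and 3, and 11 with GC and length offsets, and the list's median changed sign with the scaling.

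Contractile genes rose in part, and integrin subunits were called at shares near those over all genes. Of 16 contractile genes 7 rose and 1 fell. Mylk, the kinase of myosin light chain, read 15.2, 17.3, 12 and 11.1 CPM in homeostasis and 31.3, 40.3, 28.3 and 39.2 CPM in inflammation (log2 fold change 1.32 ± 0.17 SE, adjusted p = 5.88e-06), without overlap. Cnn1 (0.97) and Myl9 (0.85), proteins of the smooth muscle type of actin bundle, rose too, and Acta2, alpha smooth muscle actin, had a log2 fold change of 0.24 that did not pass (adjusted p = 0.202, edgeR). With homeostasis libraries 3 and 4 as controls 11 of the list rose, and with GC and length offsets 13. Targets of YAP and TEAD gave 5 of 18 higher and 1 lower. F3, tissue factor, which starts clotting, read 148, 203, 137 and 121 CPM in homeostasis and 399.8, 361, 325 and 385 CPM in inflammation (log2 fold change 1.27 ± 0.15 SE, adjusted p = 1.77e-06). For F3 no inflammation library reached down into the range of homeostasis. Among 18 integrin subunits 4 rose and 3 fell, with a median log2 fold change of -0.09, and 0.02 with GC and length offsets. Itga8, a receptor for nephronectin, read 2.28, 1.35, 1.54 and 2.26 CPM in homeostasis and 8.81, 8.92, 10.5 and 6.84 CPM in inflammation (log2 fold change 2.24 ± 0.21 SE, adjusted p = 1.07e-07). The groups of Itga8 did not overlap, with inflammation above homeostasis.

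Ligands and antagonists of the morphogen pathways changed in both directions. In the BMP pathway 7 of 26 genes rose and 4 fell, against 18.5% and 18.9% over all genes. Bmp4, a ligand, read 24.1, 26.1, 21.6 and 22.9 CPM in homeostasis and 1.96, 1.72, 1.13 and 1.68 CPM in inflammation (log2 fold change -3.86 ± 0.21 SE, adjusted p = 8.9e-11). Bmp4 was lower in every inflammation library than in any of homeostasis. Bmp7 (-4.03) and Gdf5, a ligand of the joint interzone (-2.91), fell too. Unlike Bmp4, each of these 2 stayed below 5 CPM in both groups or had libraries that overlapped. Grem1, a secreted trap for BMP ligands, read 35.8, 26, 42.5 and 42 CPM in homeostasis and 118, 135, 185 and 147 CPM in inflammation. Every inflammation library was more than 2 times any homeostasis library (log2 fold change 2.00 ± 0.20 SE, adjusted p = 2.77e-07). The traps Twsg1 (0.83) and Fst (0.48) and the receptors Bmpr1a (1.01) and Bmpr2 (1.12) rose. With homeostasis libraries 1 and 2 as controls 11 genes of the list rose.

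Among 9 secreted Wnt antagonists 5 rose and 2 fell. Dkk3 read 24, 26.7, 23.7 and 26.9 CPM in homeostasis and 49.2, 57.6, 59.1 and 70.4 CPM in inflammation (log2 fold change 1.22 ± 0.14 SE, adjusted p = 1.15e-06). Sfrp2 read 14.3, 13.4, 7.46 and 19.8 CPM in homeostasis and 1.23, 1.43, 0.832 and 1.19 CPM in inflammation (log2 fold change -3.54 ± 0.28 SE, adjusted p = 1.29e-08). For Dkk3 all inflammation libraries lay above homeostasis, and for Sfrp2 all lay below it. Sfrp1 (1.47), Dkk2 (1.14), Frzb (1.15) and the lipase Notum (1.64) rose and Wif1 fell (-4.31). Wnt ligands gave 1 of 11 higher, Wnt5b (0.72), and 3 lower, among them Rspo3, an amplifier of Wnt (-0.81). Targets of canonical Wnt signals gave 4 of 10 lower, including Axin2 (-0.55), Lgr5 (-1.0) and Tcf7 (-1.13), and Nkd2 higher (0.94). Bmp4 (-3.86), already counted above in the BMP pathway, is on this list too and is among those lower. The 10 genes summed to 237 to 261 CPM in homeostasis and 242 to 260 CPM in inflammation. Axin2 did not pass without homeostasis library 1, 2 or 4 or without inflammation library 1, 2 or 3, at -0.56 to -0.44, nor did Lgr5 without inflammation library 1 or 2, at -0.80 and -0.86. Wnt5b did not pass without inflammation library 2, at 0.50. Of 13 Notch pathway genes 5 fell and 2 rose. Notch1 (-1.07), its ligand Jag1 (-1.02) and the targets Hey1 (-1.12) and Heyl (-4.25) fell, and Notch4 rose (1.6). With homeostasis libraries 3 and 4 as controls Jag1 did not pass, at -0.46. With a filter of 1 CPM in 4 libraries, 3 of the Notch genes were lower. In the Hedgehog pathway 2 of 10 rose, the co-receptors Boc (0.60) and Gas1 (0.49), and 1 fell, the decoy receptor Hhip (-1.19). These Hedgehog counts are near or below the shares over all genes. Gas1 did not pass without homeostasis library 2 or 3 or without inflammation library 3, at 0.39 to 0.45. Of the fallen genes, Wif1, Axin2, Lgr5, Tcf7, Jag1, Hey1, Heyl and Hhip stayed below 5 CPM in both groups or had libraries that overlapped.

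Growth factor genes changed in both directions. In the FGF list 6 of 14 rose and 3 fell. Fgf2 read 8.93, 5.6, 8.2 and 6.66 CPM in homeostasis and 20.9, 26.7, 33.3 and 26 CPM in inflammation (log2 fold change 1.87 ± 0.20 SE, adjusted p = 7.14e-07). The groups of Fgf2 did not overlap, with inflammation above homeostasis. Fgf7, keratinocyte growth factor, rose by 0.98. The receptor Fgfr2 read 34.6, 42.4, 26.9 and 25.9 CPM in homeostasis and 7.81, 10.5, 10 and 10.2 CPM in inflammation (log2 fold change -1.75 ± 0.20 SE, adjusted p = 1.22e-06). Fgfr2 was lower in every inflammation library than in any of homeostasis. In the IGF system, where binding proteins hold the ligand, 6 of 14 rose and 4 fell. Igfbp4 rose by 1.06 and Pappa, the protease that cuts Igfbp4 and frees the ligand, read 20.4, 15, 9.22 and 9.55 CPM in homeostasis and 29.9, 40.5, 43.1 and 40 CPM in inflammation (log2 fold change 1.5 ± 0.22 SE, adjusted p = 3.62e-05). For Pappa no inflammation library reached down into the range of homeostasis. Igfbp2 (-1.84) and Stc2, an inhibitor of Pappa (-1.48), fell. Among 37 axon guidance genes 6 rose and 5 fell, counts below the share over all genes. Sema3c, a secreted semaphorin, read 50.9, 31.3, 54.8 and 61.3 CPM in homeostasis and 164, 168, 221 and 169.7 CPM in inflammation (log2 fold change 1.87 ± 0.20 SE, adjusted p = 6.92e-07). The groups of Sema3c did not overlap, with inflammation above homeostasis. Sema3a (1.32) and Slit1 (2.60) rose and Sema3f fell (-2.42). In this list 10 genes rose when the 8 libraries were fitted alone and 13 with GC and length offsets.

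Peptide genes moved in a few cases with large changes. Of 11 peptide genes 6 rose and 1 fell. Npy, neuropeptide Y, read 0.203, 1.17, 0.399 and 0.543 CPM in homeostasis and 12.8, 10.6, 12.9 and 13.3 CPM in inflammation. It was low in every homeostasis library and higher in every inflammation library (log2 fold change 4.29 ± 0.31 SE, adjusted p = 4.27e-09). Penk, the precursor of enkephalins, read 78.6, 117, 250.2 and 239 CPM in homeostasis and 587, 559, 860.0 and 816 CPM in inflammation, and homeostasis libraries 3 and 4 lay above 1 and 2 (log2 fold change 2.05 ± 0.27 SE, adjusted p = 1.45e-05). Penk was higher in every inflammation library than in any of homeostasis. Tac1, the precursor of substance P, rose by 3.47, Edn1, endothelin 1, by 1.27, and Adm2 fell by 1.81 on the log2 scale. For Adm2 the libraries of the 2 groups overlapped. Bdnf, a growth factor for neurons, rose (0.68).

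**Figure D4:**
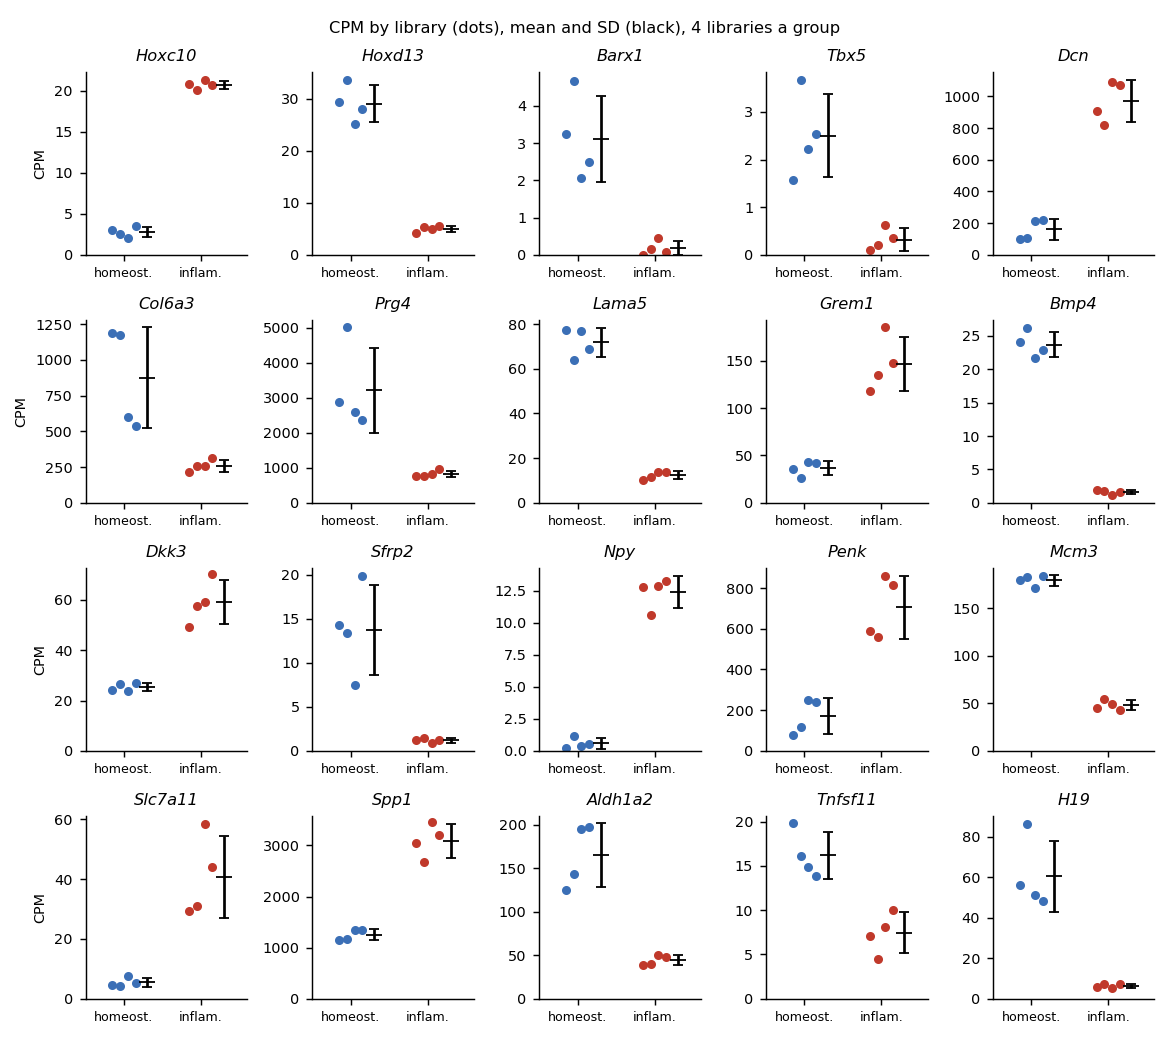
CPM of 20 genes described in the text, 1 dot a library (4 homeostasis in blue, 4 inflammation in red), with mean and SD in black and a linear axis from 0 for each gene. For each of the 20 the libraries of the 2 groups do not overlap, and Dcn, Col6a3 and Penk show homeostasis libraries 1 and 2 apart from 3 and 4.

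Part of the cholesterol synthesis and lysosomal genes rose. Cholesterol synthesis gave 8 of 23 higher and 0 lower, with a median of 0.25 log2, and Tm7sf2 (1.4), Idi1 (0.94) and Msmo1 (0.70) among them. Fatty acid synthesis gave 1 of 14 higher. Of 37 lysosomal genes 13 rose and 0 fell, and with GC and length offsets these counts were 24 higher for lysosomal genes and 14 for cholesterol synthesis. Ctsd, cathepsin D, read 1518, 1644, 1978 and 2269 CPM in homeostasis and 3700.3, 3510.1, 3229 and 3027 CPM in inflammation (log2 fold change 0.86 ± 0.15 SE, adjusted p = 0.000148). For Ctsd no inflammation library reached down into the range of homeostasis. Of 23 autophagy genes 3 rose and 1 fell. The letters TCACNCCAC, searched for the sterol element, matched 1 of 15 cholesterol synthesis promoters (6.67%), 0 of 11 of fatty acid synthesis and 1.39% of all. TGANTCA, searched for AP-1, matched 0 of 19 promoters of immediate early genes, 2 of 13 of contractile genes (15.4%) and 6.9% of all. The letters TCACGTGA, the palindrome of the CLEAR element that TFEB reads, matched 6 of 26 lysosomal promoters (23.1%) and 2.01% of all. The Ctsd promoter holds 1 match, at position -99, in capitals on the minus strand of GRCm38.p6, and is shown as an example from a gene that rose.
Ctsd (chr7:142387778-142388077): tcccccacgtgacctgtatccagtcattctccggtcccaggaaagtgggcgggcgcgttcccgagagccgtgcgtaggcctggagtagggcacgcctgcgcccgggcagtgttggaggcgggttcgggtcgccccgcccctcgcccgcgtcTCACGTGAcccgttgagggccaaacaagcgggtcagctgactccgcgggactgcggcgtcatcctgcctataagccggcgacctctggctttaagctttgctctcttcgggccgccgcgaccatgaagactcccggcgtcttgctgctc
Genes of cholesterol efflux and lipid handling gave 6 of 19 higher and 5 lower. Their median was -0.12 log2, and 0.07 with GC and length offsets. Lpl, lipoprotein lipase, read 34.9, 25.8, 31.6 and 27.3 CPM in homeostasis and 128, 134, 176 and 163 CPM in inflammation (log2 fold change 2.33 ± 0.16 SE, adjusted p = 2.77e-09). Abca1, the cholesterol exporter, read 21.3, 13.9, 21.9 and 16.1 CPM in homeostasis and 32.6, 38.9, 53.8 and 58.3 CPM in inflammation (log2 fold change 1.33 ± 0.23 SE, adjusted p = 0.000191). For Lpl and Abca1 all inflammation libraries lay above all of homeostasis. Apoe, apolipoprotein E, read 28.8, 43.5, 30.1 and 35.8 CPM in homeostasis and 6.8, 5.77, 4.65 and 4.9 CPM in inflammation (log2 fold change -2.64 ± 0.20 SE, adjusted p = 5.57e-09). Apoe was lower in every inflammation library than in any of homeostasis. Apoc1 fell as well (-3.60), and Cd36, a fatty acid receptor, rose (3.65). Of these genes Lpl, Cd36, Ctsd and Abca1, which rose, and Apoe, which fell, are expressed by macrophages too, whose markers summed to 136 to 181 CPM in homeostasis and 737 to 825 CPM in inflammation, and that part was not tested.

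Of 44 nuclear genes of the respiratory chain 3 fell and 0 rose, against 18.9% and 18.5% over all genes, and Sdha and Uqcrc2 among these 3 did not pass without homeostasis library 2, at -0.23 and -0.27. Doxycycline is known to block protein synthesis inside mitochondria, which these nuclear transcripts do not measure. In the tricarboxylic acid cycle 5 of 15 fell and 1 rose, Sucla2, a subunit of succinyl-CoA ligase (0.66). The fallen were led by Idh2, mitochondrial isocitrate dehydrogenase, with 102, 128, 98.9 and 128 CPM in homeostasis and 41.5, 36, 31.2 and 27.2 CPM in inflammation (log2 fold change -1.75 ± 0.17 SE, adjusted p = 1.63e-07). For Idh2 no inflammation library reached up into the range of homeostasis. In arginine and polyamine metabolism 7 of 18 fell and 2 rose. Arg1, arginase 1, which is also expressed by macrophages, read 0.0507, 0.215, 0 and 0.181 CPM in homeostasis and 65.4, 71.3, 36.9 and 34.3 CPM in inflammation (log2 fold change 8.60 ± 0.48 SE, adjusted p = 1.61e-10). The groups of Arg1 did not overlap, with inflammation above homeostasis. The other gene to rise was Azin2, an antizyme inhibitor (1.07). Among those that fell were Odc1, the first enzyme of polyamine synthesis (-0.89), and Srm (-0.89). The count of 7 was 4 with homeostasis libraries 1 and 2 as controls. Nos2, inducible nitric oxide synthase, did not pass (-0.16, adjusted p = 0.665, edgeR).

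Genes of the NRF2 response to oxidants and electrophiles gave 12 of 21 higher and 2 lower, with a median of 0.58 log2. Gsta4, a glutathione transferase, read 24.7, 24.6, 13.3 and 15 CPM in homeostasis and 100.1, 97.6, 131 and 92.7 CPM in inflammation (log2 fold change 2.44 ± 0.19 SE, adjusted p = 1.08e-08). Gclc, the first enzyme of glutathione synthesis, read 52.6, 57.3, 38.1 and 40.3 CPM in homeostasis and 85.5, 89.5, 139 and 164 CPM in inflammation (log2 fold change 1.34 ± 0.22 SE, adjusted p = 8.42e-05). For Gsta4 and Gclc all inflammation libraries lay above all of homeostasis. Prdx1 (0.93), Srxn1 (0.72) and Gstm1 (1.22) rose, whereas Gsr (-0.63) and Txnrd1 (-0.47) fell. Txnrd1 did not pass without homeostasis library 2 or without inflammation library 1 or 2, at log2 fold changes between -0.41 and -0.27. The letters TGACNNNGC of the antioxidant response element matched 6 of 16 promoters of the list (37.5%) and 16.7% of all, a loose motif. Genes of the aryl hydrocarbon receptor, chosen after their values were seen, moved in the same samples. Aldh3a1, an aldehyde dehydrogenase and a target of that receptor, read 25.4, 26.6, 28.1 and 43.3 CPM in homeostasis and 146, 139.9, 191 and 141 CPM in inflammation (log2 fold change 2.32 ± 0.17 SE, adjusted p = 6.4e-09). For Aldh3a1 no inflammation library reached down into the range of homeostasis. Cyp1a1 had 2 counts in all 4 homeostasis libraries together and 106 in inflammation. Tiparp rose by 1.41, Ahr itself by 1.05 and Ugt1a7c by 2.02, with the caution that Ugt1a genes share exons, while Cyp1b1 (0.21) and Ahrr (0.31) did not pass.

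Retinoid genes gave 5 of 16 higher and 3 lower. Aldh1a2, which makes retinoic acid, read 126, 143, 196 and 198 CPM in homeostasis and 38.8, 40.2, 50.7 and 48.3 CPM in inflammation (log2 fold change -1.89 ± 0.16 SE, adjusted p = 1.87e-08). The groups of Aldh1a2 did not overlap, with inflammation below homeostasis. Aldh1a3 fell as well (-2.31), and Dhrs3, which turns retinal back to retinol, rose (1.00). In iron and metal handling 4 of 17 rose and 4 fell, not far from the shares over all genes. Cp, ceruloplasmin, read 29.6, 31.5, 64.2 and 57.2 CPM in homeostasis and 159, 158, 198 and 233 CPM in inflammation (log2 fold change 2.04 ± 0.23 SE, adjusted p = 9.87e-07). Slc39a14, an importer of zinc and iron, read 167, 144, 160.3 and 143 CPM in homeostasis and 49.1, 57.5, 57.5 and 71.4 CPM in inflammation (log2 fold change -1.38 ± 0.13 SE, adjusted p = 9.9e-08). For Cp all inflammation libraries lay above homeostasis, and for Slc39a14 all lay below it. The metallothionein Mt2 fell (-0.62).

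Genes of lipid mediators changed in both directions. In the prostaglandin and leukotriene list 10 of 19 rose and 4 fell. Pla2g4a, the phospholipase that frees arachidonic acid, read 106, 81.5, 116 and 116 CPM in homeostasis and 364, 348, 467 and 363 CPM in inflammation (log2 fold change 1.88 ± 0.17 SE, adjusted p = 5.14e-08). Ptgs1, the constitutive cyclooxygenase, read 92.8, 70, 112 and 140.1 CPM in homeostasis and 246, 254, 326 and 285 CPM in inflammation (log2 fold change 1.42 ± 0.17 SE, adjusted p = 3.11e-06). For Pla2g4a and Ptgs1 all inflammation libraries lay above all of homeostasis. Alox5 (1.39), Alox5ap (2.38), Ltc4s (1.96) and Tbxas1 (2.62), which are genes of myeloid cells, also rose, and the macrophage sum in these libraries is given above. Slco2a1, the importer that clears prostaglandins, fell (-0.93). Glucocorticoid genes gave 2 of 13 higher and 2 lower, near the shares over all genes. Hsd11b1, which activates the hormone inside cells, read 7.56, 7.47, 7.29 and 8.51 CPM in homeostasis and 16.1, 15.8, 14.8 and 18.9 CPM in inflammation (log2 fold change 1.09 ± 0.14 SE, adjusted p = 6.94e-06). Fkbp5, a target of the receptor, read 33.8, 36, 29.4 and 37.7 CPM in homeostasis and 15, 14.8, 12.6 and 13.9 CPM in inflammation (log2 fold change -1.28 ± 0.17 SE, adjusted p = 7.76e-06). For Hsd11b1 all inflammation libraries lay above homeostasis, and for Fkbp5 all lay below it. The receptor Nr3c1 rose by 1.04. Clock genes gave 4 of 18 in each direction, also near those shares, among them Dbp (1.11), Nr1d2 (1.17) and Bhlhe41 (-1.08). The median of the clock list changed sign with the scaling. The hour of harvest is not given in the labels.

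Regulators of bone gave 4 of 12 higher and 2 lower. Tnfsf11, RANKL, the signal that makes osteoclasts, read 19.9, 16.2, 14.9 and 13.8 CPM in homeostasis and 7.12, 4.46, 8.12 and 10 CPM in inflammation (log2 fold change -1.12 ± 0.23 SE, adjusted p = 0.000894). Its decoy receptor Tnfrsf11b, osteoprotegerin, read 31.7, 38.3, 27.3 and 24.5 CPM in homeostasis and 15.8, 14.3, 13.8 and 15.3 CPM in inflammation (log2 fold change -1.04 ± 0.16 SE, adjusted p = 4.46e-05). For Tnfsf11 and Tnfrsf11b all inflammation libraries lay below all of homeostasis. Il6 (0.10) and Csf1 (0.01) did not pass. Immediate early genes gave 3 of 24 higher and 4 lower, below the shares over all genes, with Nr4a2 (1.5) up and Jun (-0.64) down. Imprinted growth genes gave 6 of 18 lower and 0 higher. H19 (chr7:142575530-142578146), a non-coding RNA expressed from the maternal allele, read 56.3, 86.2, 51.3 and 48.2 CPM in homeostasis and 5.8, 7.12, 5.53 and 7.46 CPM in inflammation (log2 fold change -3.22 ± 0.20 SE, adjusted p = 8.42e-10). For H19 no inflammation library reached up into the range of homeostasis. Grb10, a brake on growth receptors, fell by 1.25 on the log2 scale. The count of 6 was 3, 3 and 2 without homeostasis library 1, inflammation library 1 and inflammation library 2, 3 without TMM scaling and 2 with homeostasis libraries 3 and 4 as controls. Writers and erasers of chromatin gave 10 of 29 lower and 3 higher, with Dnmt1 (-1.39) and Ezh2 (-1.31), which are high in dividing cells, among those lower. These 10 were 6 without homeostasis library 2 or inflammation library 1 or 2, and 2 with homeostasis libraries 3 and 4 as controls.

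Outside the lists, the abundant genes with a change of at least 4-fold and no overlap included secreted proteins. Ppbp, the platelet basic chemokine, read 18.1, 15.7, 19.4 and 22.5 CPM in homeostasis and 159, 159, 133 and 122 CPM in inflammation (log2 fold change 2.92 ± 0.15 SE, adjusted p = 6.06e-11). Slpi, an inhibitor of leukocyte proteases, read 12.9, 9.93, 22 and 24.3 CPM in homeostasis and 103, 102, 138 and 128 CPM in inflammation (log2 fold change 2.77 ± 0.22 SE, adjusted p = 1.4e-08). For Ppbp and Slpi all inflammation libraries lay above all of homeostasis. Irgm1, an interferon-induced GTPase, rose by 2.14. Cacna1g, a T-type calcium channel, read 18.3, 13.4, 11.1 and 16.1 CPM in homeostasis and 84, 98.2, 111 and 97.5 CPM in inflammation (log2 fold change 2.73 ± 0.19 SE, adjusted p = 2.05e-09). Cacna1g was higher in every inflammation library than in any of homeostasis. On the other side Slc29a1, a nucleoside transporter, read 293, 264, 321 and 348 CPM in homeostasis and 79.2, 76.3, 76.6 and 73.4 CPM in inflammation (log2 fold change -2.0 ± 0.14 SE, adjusted p = 1.96e-09). Coch, cochlin, a matrix protein of the inner ear, read 98.7, 89.5, 64.2 and 66.1 CPM in homeostasis and 7.67, 8.43, 7.39 and 9.05 CPM in inflammation (log2 fold change -3.29 ± 0.18 SE, adjusted p = 8.97e-11). For Slc29a1 and Coch all inflammation libraries lay below all of homeostasis. Ezr, ezrin, which links membrane to actin (-2.01), Krt19, a keratin (-2.03), and Itih2, a hyaluronan-associated protein (-2.05), fell, and so did the division genes Iqgap3 (-2.50), Melk (-2.24) and Nek2 (-2.20). Apol9a (2.05) and Apol9b (2.33) rose, with the caution that these 2 are near-identical copies. Some genes were close to absent in 1 group: Cd209f had 0 counts in homeostasis and 123 in inflammation, Gm5483 0 and 350, and Sycp1, a synaptonemal complex protein, 2 and 167.

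Calls were unevenly spread over gene classes. Chromosome 13 had 28.0% of its tested genes higher, against 14.4% to 22.8% on the other autosomes. Its 33 tested Zfp genes, a family of zinc finger repressors chosen after values were seen, gave 15 higher and 0 lower, and without them 26.9% of chromosome 13 genes were still higher. Over all autosomes 91 of 330 Zfp genes were higher and 16 lower. Long non-coding RNAs gave 17.7% higher and 5.68% lower of 898 tested. Calls also followed base composition: when genes were split into 5 bins of equal size, the bin with the lowest GC content (31% to 44%) had 39.0% higher and 9.03% lower, and the middle bin 10.8% and 26.0%. By transcript length the bin of the longest gave 23.3% higher and 16.4% lower. With an offset for GC and length in every library, 3085 genes were higher and 2863 lower, of which 2139 and 2176 were among the calls above. A GC difference between libraries and one between genes' responses cannot be told apart here.

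**Figure D5:**
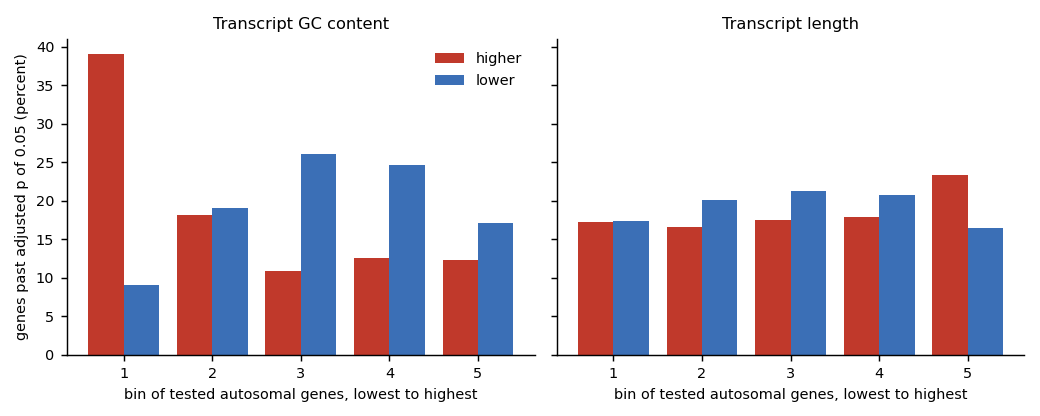
Share of tested autosomal genes called higher (red) or lower (blue) in inflammation, by 5 bins of transcript GC content (left) and transcript length (right), lowest to highest. The lowest GC bin stands apart with 39.0% higher and 9.03% lower, and the length bins lie between 16.4% and 23.3%.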

How the data were processed

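The authors deposited 1 table of estimated counts, with gene symbols down and libraries across. The values carry no normalization and are total read counts, per the file headers. Poly(A) RNA was sequenced in pairs on a NovaSeq, per the labels' protocols, and the build was GRCm38.p3, per the submitters' processing notes. Aligner, counter and strand setting: not given in the sources used here. Values that were not whole (1.43%) were rounded. Of 36930 entries 13 had no value, 42 repeats of 34 symbols were summed, and 36875 symbols remained. Chromosomes and coordinates came from RefSeq (GRCm38.p6, which shares the primary chromosomes with p3): 29171 symbols matched, 1329 by a synonym, and 6375 did not.

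Genes were filtered with edgeR 4.0.16 (R 4.3.3) over 3 groups, scaled by TMM and tested with its quasi-likelihood F test (robust) on all 12 libraries, with no term but group. P-values were adjusted over 15049 genes by Benjamini-Hochberg, with a threshold of 0.05, and autosomal genes were counted afterwards. Tested genes without a chromosome in that table were left out. The biological coefficient of variation was 21.8% in homeostasis and 15.0% in inflammation. A count of 0 allows up to 3 counts of a library's total, for counting error only. The script was tested on simulated counts.

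Members, the 51 programme and 16 marker lists were chosen with earlier results of these data known, and 13 list entries were matched by another symbol. Genes named from each list were the 2 risen and 2 fallen with the smallest adjusted p among those reaching 5 CPM without overlap of libraries. Outside the lists they were the 12 risen and 12 fallen with the highest CPM and a log2 change of at least 2. Other list members were named after their values were seen. A few of the genes so chosen are not reported here. Alternatives were other scalings, filters, DESeq2 1.42.0, a replicate block, each library left out, pairs of controls, and offsets for GC and length (GENCODE M21 transcripts, 98.0% of genes). The offsets were chosen after seeing the data.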

Additional observations from a re-analysis of the deposited data

Results flagged for a closer look

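Among 128 groups of 4 libraries whose values are given one by one, 5 had 1 library far from the other 3 by the gap to its nearest neighbour over the whole range. Chance alone flags about 1 in 20 groups. Inflammation library 3 was the highest in 3 of them. Aldh3a1 read 191 CPM there against 139.9 to 146 in the others (ratio 0.882), Pla2g4a 467 against 348 to 364 (0.865), and Sema3c 221 against 164 to 169.7 (0.900). In homeostasis, Aldh3a1 read 43.3 CPM in library 4 against 25.4 to 28.1 (0.849). Hoxc11 read 10.1 CPM in inflammation library 4 against 12.8 to 13.1 (0.880). For all 4 genes the libraries of the groups did not overlap, with those libraries included.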

How the results depend on the processing

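Across the other scalings, filters, tools and subsets of libraries, higher calls numbered 2370 to 3085 and lower calls 2052 to 2863, or 2092 to 2583 and 1995 to 2439 with 1 library left out. With upper-quartile factors 59.1% of calls were higher, against 49.4%. DESeq2 called 2719 genes higher and 2716 lower. Of 266 passing genes that the naming rule picked or the text names, 237 kept their call in every setting that gave a value. In at least 1 setting 29 lost it, and 0 reversed. Genes named as not passing, such as Acta2 and Nos2, are not among the 266. Depth limits genes near 3 counts, and the spread among homeostasis libraries limits small changes. The causes of the shifts below were not tested.

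The replicate block left 2370 genes higher and 2305 lower. Same-numbered libraries did not deviate together (correlations -0.171, -0.0894, 0.0802 and -0.213 over genes), so the numbers were not read as pairs. Under the block the glycosaminoglycan genes higher were 3.

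With homeostasis libraries 3 and 4 as controls, lower members were 3 for adipocyte markers, 4 for Hox, 14 for collagen processing, 2 for imprinted and 2 for chromatin genes, and 11 contractile genes were higher. With libraries 1 and 2 they were 5 lower for collagen processing, 4 lower for arginine and polyamine genes, and 11 higher for BMP. Upper-quartile factors gave 5 collagen processing genes lower and total counts 3 imprinted genes lower. A filter of 1 CPM gave 3 Notch genes lower, and the 8 libraries alone 10 axon guidance genes higher. Offsets for GC and length (an alternative picked once the data had been seen) gave as higher 11 glycosaminoglycan, 13 contractile, 13 axon guidance, 14 cholesterol synthesis, 24 lysosome and 11 p53 genes. With 1 library left out, lower members ran from 4 to 7 for fibroblast markers, 4 to 7 for Hox, 5 to 12 for collagen processing, 3 to 6 for elastic fibre, 2 to 6 for imprinted and 6 to 10 for chromatin genes, and higher members from 2 to 6 for glycosaminoglycan synthesis.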
